A study of Arabidopsis thaliana with 30 samples.

Results

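The genes described here encode the Calvin cycle, with its carbonic anhydrases, and photorespiration. They were chosen by locus identifier, with earlier results of these data known, although no measured value entered the rule. The 33 genes, 22 for the Calvin cycle and carbonic anhydrase and 11 for photorespiration, are all present among the 38194 loci of the count table, and all 33 passed the filter on low counts that left 21052 genes for testing. RNA came from leaves 1 and 2 of 10 d old Arabidopsis thaliana Columbia-0 seedlings, detached, surface sterilised and shaken whole in buffer, and was sequenced as ribosome-depleted strand-specific libraries. Mock leaves were held in buffer with 5.0% glucose and 0.2% DMSO. Stimulus leaves were held in the same buffer with 20 µM bikinin, an inhibitor of GSK3-like kinases that switches on brassinosteroid responses, 2.5 µg/mL 2,4-D (a synthetic auxin) and 0.5 µg/mL kinetin (a cytokinin), a mixture that the design text calls a transdifferentiation treatment. Both were sampled at 6, 7, 8, 9 and 10 h with 3 replicates, giving 10 groups and 30 libraries. Glucose and detachment are common to mock and stimulus, untreated attached leaves are not analysed here, and each sample pooled whole leaves, so that all leaf cell types contribute.

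The Calvin cycle fixes carbon dioxide in the chloroplast stroma. Rubisco adds it to ribulose bisphosphate, the product is reduced to triose phosphate with ATP and NADPH, and the acceptor is regenerated. Rubisco also accepts oxygen, and photorespiration recovers the carbon of the resulting phosphoglycolate in a route that passes from chloroplast to peroxisome to mitochondrion and back. Most of these proteins are encoded in the nucleus. The Rubisco large subunit, rbcL, is encoded in the plastid. In Arabidopsis leaves these transcripts are among the most abundant of the mesophyll and are known to respond to light, sugar and hormones.

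Libraries held 14981271 to 22729166 counts. The columns for mock replicate 3 at 6 h and at 7 h were identical at every locus, so that 29 libraries were distinct, 14 of them mock, and this library was counted once in ranges, means and SDs. Replicate 3 stood apart from replicates 1 and 2 in both treatments and at every hour, and its plastid loci took 0.556% to 0.872% of counts against 1.37% to 3.09% in replicates 1 and 2. The labels name no batch. Effects are therefore given for all libraries and for replicates 1 and 2 and replicate 3 apart. The 33 genes together took 3.32% to 5.90% of nuclear counts in mock libraries (median 3.79%) and 1.95% to 2.82% in stimulus libraries (median 2.25%), where nuclear counts leave out rRNA and tRNA loci. The ranges did not overlap. In mock, replicate 3 stood higher than replicates 1 and 2, at 5.43% to 5.90% against 3.32% to 4.46%, while in stimulus the ranges overlapped, at 2.01% to 2.77% against 1.95% to 2.82%.

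**Figure D1:**
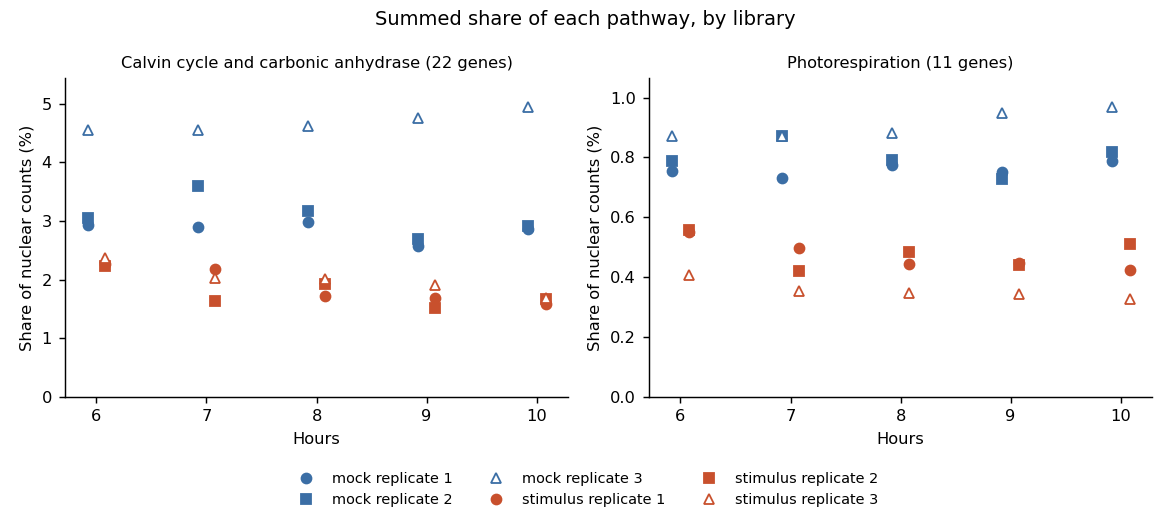
Summed counts of the 22 Calvin cycle and carbonic anhydrase genes (left) and the 11 photorespiration genes (right) as a percentage of nuclear counts, by hour, with 1 point per library. Blue points are mock and red points stimulus, replicates 1, 2 and 3 are circles, squares and open triangles, and the identical mock library appears at both 6 and 7 h. All stimulus points lie below all mock points in both panels.

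The first question was what the stimulus did to the 33 transcripts on average over the 5 hours. All 22 Calvin cycle and carbonic anhydrase genes were lower in stimulus, and 10 of the 11 photorespiration genes were lower, with none higher. The exception was the catalase gene CAT2. The background was large: of all genes tested, 27.0% were called lower and 29.7% higher. The median log2 fold change was -1.20 for the Calvin cycle genes and -1.01 for the photorespiration genes, beside 0.02 for all genes tested. The tests were edgeR quasi-likelihood tests over all genes tested with Benjamini-Hochberg adjustment at 0.05. The falls ranged from -2.07 ± 0.32 (log2 fold change ± SE) for BCA2 to -0.49 ± 0.11 for PDTPI. Because leaves were sequenced whole, fewer mesophyll cells and less RNA per mesophyll cell cannot be told apart.

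The direction was shared by nearly every pair of libraries. When each stimulus library was set beside the mock library of its hour and replicate number, 30 of the 33 genes were lower in 15 of 15 pairs, as were 13.7% of all genes tested. PGK1 and RPI3 were lower in 14 pairs and CAT2 in 11. All stimulus libraries lay below all mock libraries for 15 of the 33 genes, against 3.97% of all genes tested. They were RBCS2B, PRK, GAPA-1, GAPB, CP12-2, SBPASE, HCEF1 and FBA1 of the Calvin cycle and GLDT, GLDH1, GOX1, GOX2, HPR1, SHM1 and AGT1 of photorespiration. In this fit the 5 hours of a replicate number enter as separate libraries. With counts summed over the hours, leaving 3 mock and 3 stimulus sums, 7 Calvin cycle genes (RBCS2B, PRK, GAPA-1, GAPB, CP12-2, SBPASE and BCA1) and 5 photorespiration genes (GLDT, GLDH1, GOX1, GOX2 and HPR1) were lower, beside 3.48% of all genes. With the replicate number as a block the sums gave 13 and 4, beside 6.92% of all genes.

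**Figure D2:**
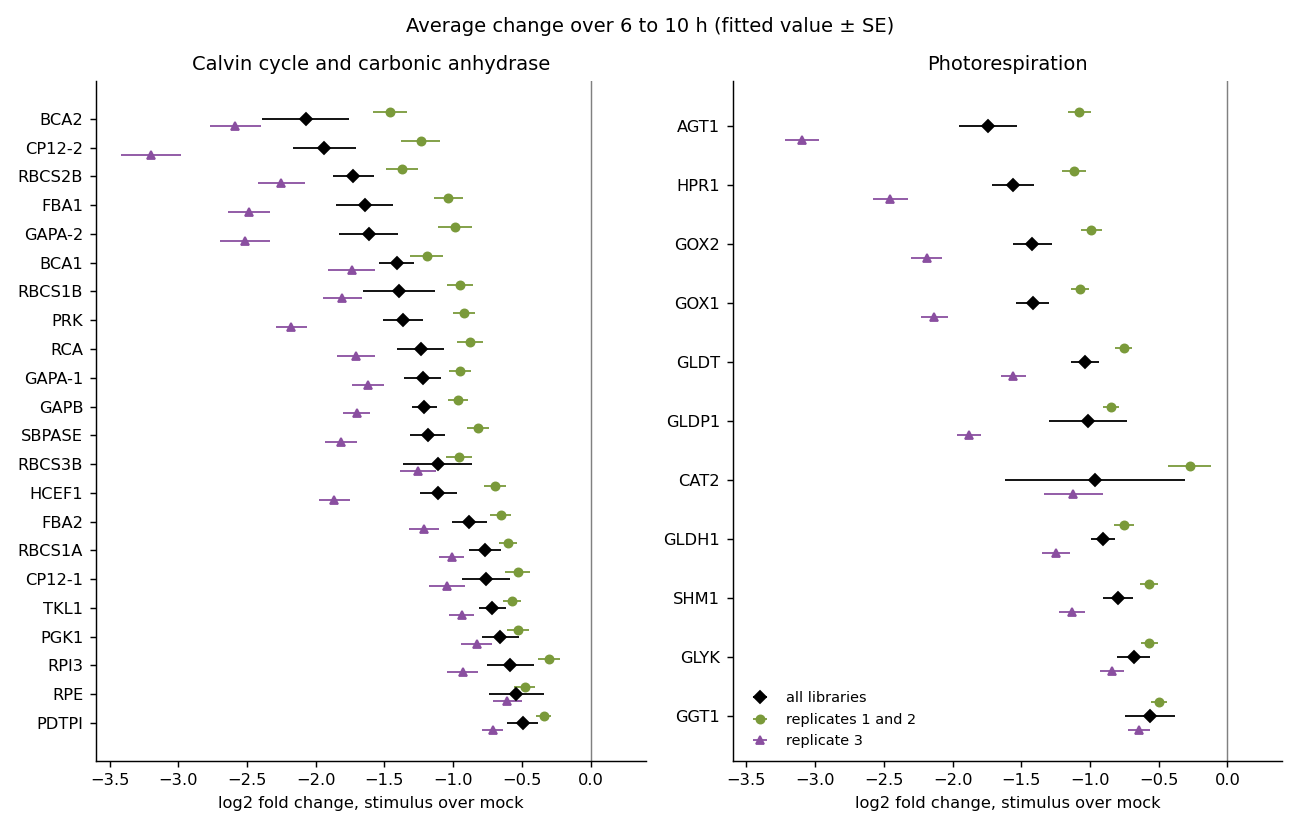
Average log2 fold change of stimulus over mock from 6 to 10 h for each gene, with its SE, for all libraries (black diamonds), replicates 1 and 2 (green circles) and replicate 3 (purple triangles). Every value lies below 0, and the replicate 3 value lies below that of replicates 1 and 2 for each gene.

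The carboxylation step was represented by 4 Rubisco small subunit genes, RBCS1A (AT1G67090), RBCS1B (AT5G38430), RBCS2B (AT5G38420) and RBCS3B (AT5G38410), and by RCA (AT2G39730), Rubisco activase, which frees Rubisco active sites of bound sugar phosphates. Levels are in CPM, each library's counts scaled to a common total by TMM. RBCS1A stood at 5480.2 at the lowest, 6770.0 at the median and 10882.5 at the highest of 14 mock libraries, and at 3509, 4486 and 6026 in 15 stimulus libraries. It was the highest of the 33 genes per kilobase of coding sequence, at a mock median of 12468 CPM per kilobase, followed by RBCS3B at 3173, RBCS2B at 2142 and RBCS1B at 1364. Its fall was the smallest of the 4, at -0.77 ± 0.12 (adjusted p = 8.41e-06), and stimulus replicate 3 overlapped mock replicates 1 and 2, while the treatments did not overlap within either replicate set.

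RBCS2B fell most among the small subunit genes, by -1.73 ± 0.15 (adjusted p = 2.50e-09). At 6 h its mock libraries stood at 995, 1087 and 1780.3 CPM for replicates 1, 2 and 3 and its stimulus libraries at 567, 649.8 and 619.7. The 10 h mock values were 1073, 1144 and 2321 and the stimulus values 326, 367 and 332. Mock replicate 3 was the highest library at both hours, the stimulus libraries lay close together, and no stimulus library reached a mock one. RBCS1B and RBCS3B fell by -1.39 ± 0.26 and -1.11 ± 0.25 on average (adjusted p = 0.000109 and 0.000607). RBCS1B ranged from 569 to 2276 CPM in mock (median 745) and from 263 to 743 in stimulus (median 421). RBCS3B ranged from 1408 to 4513 CPM in mock (median 1780.3) and from 685 to 2237 in stimulus (median 1122). Both overlapped between treatments, since stimulus replicate 3 reached the mock level of replicates 1 and 2. The 4 genes share sequence: of the 31-base words in its exons RBCS2B shares 37.1% with another small subunit gene, RBCS3B 21.2%, RBCS1B 19.0% and RBCS1A 4.60%, so that reads may be split between them and the values of the 3 genes on chromosome 5 are uncertain to that extent.

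RCA fell by -1.24 ± 0.17 (adjusted p = 2.12e-06). At 6 h it stood at 1198, 1247 and 2007 CPM in mock replicates 1, 2 and 3 and 886, 822 and 887 in stimulus. By 10 h the values were 884, 949 and 2259.8 in mock and 362, 481 and 562 in stimulus. At each of the 5 hours every stimulus library was below every mock library.

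The plastid partner of the small subunit was read beside it. The rbcL locus (ATCG00490) ranged from 34.1 to 79.1 CPM in mock (median 67.8) and from 44.1 to 96.3 in stimulus (median 63.4), with an average log2 fold change of 0.12 ± 0.15 (adjusted p = 0.510) that did not pass the test. With replicate number as a block it passed, at 0.16 ± 0.06 (adjusted p = 0.0226). In replicate 3 it was higher in stimulus by 0.38 ± 0.09, and in replicates 1 and 2 it was 0.05 ± 0.06 (adjusted p = 0.540). No p-value is given for replicate 3, since the hours of 1 replicate number enter that fit as separate libraries. The difference between the rbcL and small subunit changes was not tested. Plastid loci together took 0.556% to 3.09% of counts, against 29.9% to 37.2% for mitochondrial loci. How fully these libraries captured plastid RNA was not tested, so the rbcL level cannot be set against that of the small subunit genes. Of 9 nuclear genes for Rubisco folding and assembly, 8 were lower on average, beside 27.0% of all genes, among them RBCX1, a Rubisco assembly chaperone, at -1.09 ± 0.19. CPN60B2, a chaperonin subunit, did not pass at -0.43 ± 0.24 (adjusted p = 0.128) and was lower with the block, at -0.32 ± 0.10 (adjusted p = 0.00630). On counts summed over hours edgeR called 0 of the 9, beside 3.48% of all genes called lower. An unadjusted p under 0.05 was found for 3 of the 9, beside 6431 of all 22213 genes.

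The 250 bases before the annotated start of each gene were searched, on both strands, for the light-response motifs CACGTG (G-box) and GATAAG (I-box), which recur in small subunit promoters of flowering plants. Promoters are from RefSeq, assembly TAIR10.1, and 27443 genes have one. The G-box occurs in 6.49% of all promoters and in those of RBCS2B, PRK, HCEF1, GLDP1 and GGT1. The I-box occurs in 12.3% of all promoters and in those of RBCS2B, RCA, CP12-2 and HCEF1, with none among the 11 photorespiration genes. These 4 promoters are printed 5′ to 3′ on the gene's own strand, with G-box and I-box letters in capitals. They hold every I-box found in the 250-base windows of the 33 genes.
RBCS2B, chr5:15382072-15382321, minus strand: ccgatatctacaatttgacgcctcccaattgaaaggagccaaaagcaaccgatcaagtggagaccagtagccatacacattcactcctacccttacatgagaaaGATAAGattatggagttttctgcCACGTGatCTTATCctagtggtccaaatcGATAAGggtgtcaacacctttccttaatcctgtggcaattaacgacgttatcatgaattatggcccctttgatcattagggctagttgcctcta
HCEF1, chr3:20016587-20016836, plus strand: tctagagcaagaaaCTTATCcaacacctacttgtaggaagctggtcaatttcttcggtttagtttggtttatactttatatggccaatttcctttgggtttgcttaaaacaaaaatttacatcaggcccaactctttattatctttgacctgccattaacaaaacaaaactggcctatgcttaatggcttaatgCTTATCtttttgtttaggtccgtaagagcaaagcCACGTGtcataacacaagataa
RCA, chr2:16573693-16573942, minus strand: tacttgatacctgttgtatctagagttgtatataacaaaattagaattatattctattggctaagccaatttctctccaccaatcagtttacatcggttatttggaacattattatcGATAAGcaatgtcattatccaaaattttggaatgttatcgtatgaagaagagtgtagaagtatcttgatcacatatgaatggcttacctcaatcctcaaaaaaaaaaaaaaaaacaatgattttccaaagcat
CP12-2, chr3:23090694-23090943, plus strand: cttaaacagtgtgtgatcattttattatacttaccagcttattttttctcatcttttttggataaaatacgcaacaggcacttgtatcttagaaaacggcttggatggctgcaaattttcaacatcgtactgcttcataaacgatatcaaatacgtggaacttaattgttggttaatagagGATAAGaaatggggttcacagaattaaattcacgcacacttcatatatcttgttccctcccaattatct
In RBCS2B the G-box starts 123 bases before the gene's start and is flanked by I-boxes that start 146, 115 and 94 bases before it. In HCEF1 the G-box starts 22 bases before the start and the I-boxes 236 and 56 bases before it. RCA and CP12-2 hold 1 I-box each, 133 and 69 bases before the start. The RBCS1A, RBCS1B and RBCS3B windows hold neither motif, which says only that these letters are not in these 250 bases. Each window depends on the annotated start, and sequence past it was not searched. The RBCS1B window ends in GATAA, so that a motif across its annotated start would be missed. RBCS2B can therefore not be said to differ from the other small subunit genes in these motifs. Of sequences bound by brassinosteroid and auxin response factors, CGTGTG (5.37% of all promoters) occurs before GLYK, CGTGCG (1.57%) before PGK1, TGTCTC (10.9%) before GAPA-1, GAPA-2 and BCA1, and TGTCGG (4.16%) before GLDP1 and GLYK. A match is a run of letters and not a shown binding site.

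Carbonic anhydrases, which interconvert carbon dioxide and bicarbonate, held the largest fall of the 33 genes. BCA2 (AT5G14740) held 247, 249.6 and 654 CPM in mock replicates 1, 2 and 3 at 6 h, against 99.3, 106 and 205 in stimulus. By 10 h the mock values were 215, 237 and 1026 and the stimulus values 80.2, 104 and 108. Stimulus lay below mock in every replicate at both hours, and mock replicate 3 was far above the other mock libraries. The average log2 fold change was -2.07 ± 0.32 (adjusted p = 8.46e-06). It was -1.46 ± 0.13 in replicates 1 and 2 and -2.59 ± 0.18 in replicate 3. BCA1 (AT3G01500), the main chloroplast form, ranged from 411 to 806 CPM in mock (median 496) and from 134 to 414 in stimulus (median 211). It fell by -1.41 ± 0.13 (adjusted p = 3.75e-09), and only its highest stimulus library overlapped the mock range. BCA1 overlaps AT3G01510 on the same strand over 343 bases, a locus with 3.59% of its counts.

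The reduction steps turn phosphoglycerate into triose phosphate. Phosphoglycerate kinase (PGK1, AT3G12780) fell by -0.66 ± 0.14, and the chloroplast glyceraldehyde phosphate dehydrogenase subunits GAPA-1 (AT3G26650), GAPA-2 (AT1G12900) and GAPB (AT1G42970) fell by -1.22 ± 0.13, -1.61 ± 0.22 and -1.21 ± 0.09. GAPB had the smallest adjusted p of the 33 genes, 2.78e-10, with 854 to 1334 CPM in mock (median 1018) and 345 to 605 in stimulus (median 439.5), so that a gap separated the treatments. Triose phosphate isomerase (PDTPI, AT2G21170) had the smallest fall of the 33. It stood at 146 CPM at the lowest, 174 at the median and 274 at the highest in mock, and at 118, 137 and 186 in stimulus, with overlapping ranges (log2 fold change -0.49 ± 0.11, adjusted p = 0.000780).

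CP12 is a small redox-controlled protein that ties glyceraldehyde phosphate dehydrogenase to phosphoribulokinase in the dark. CP12-2 (AT3G62410) had the second lowest average, -1.94 ± 0.23 (adjusted p = 3.09e-07), a 3.83-fold fall. At 6 h it stood at 43.6, 36.9 and 65.4 CPM in mock replicates 1, 2 and 3 and at 18.5, 24.0 and 11.8 in stimulus. At 10 h the mock libraries stood at 28.4, 29.3 and 88.3 and the stimulus libraries at 14.0, 18.7 and 7.93. Replicate 3 was the highest library in mock and the lowest in stimulus at both hours. CP12-1 (AT2G47400), its paralog, fell by -0.76 ± 0.18 (adjusted p = 0.000779), from a mock median of 57.7 CPM (40.3 to 123) to 40.6 (29.7 to 57.1).

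Regeneration of the acceptor begins with aldolase. FBA1 (AT2G21330) fell by -1.64 ± 0.21 and FBA2 (AT4G38970) by -0.88 ± 0.13. The bisphosphatases that commit carbon to regeneration, HCEF1 (AT3G54050, the chloroplast fructose bisphosphatase) and SBPASE (AT3G55800, sedoheptulose bisphosphatase), fell by -1.11 ± 0.14 and -1.19 ± 0.13. PRK (AT1G32060), phosphoribulokinase, which makes the Rubisco substrate, fell by -1.37 ± 0.15, from 352 to 776 CPM in mock (median 483) to 147 to 313 in stimulus (median 205), with no overlap. Apart from PDTPI, given above, the regeneration enzymes with the smallest falls were those of the sugar phosphate shuffle. Transketolase (TKL1, AT3G60750) fell by -0.71 ± 0.10.

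Ribulose phosphate epimerase (RPE, AT5G61410) stood at 89.2 CPM at the lowest, 160.1 at the median and 277 at the highest in mock and at 64.4, 121 and 216 in stimulus. Its fall was -0.54 ± 0.20 (adjusted p = 0.0262), and the ranges overlapped widely. Ribose phosphate isomerase (RPI3, AT3G04790) stood at 58.8, 75.6 and 157 in mock and at 43.8, 67.0 and 88.6 in stimulus, a fall of -0.58 ± 0.17 (adjusted p = 0.00585). Without the identical mock library RPE did not pass (-0.44, adjusted p = 0.0710), leaving 21 of 22 Calvin cycle genes. RPE also missed the threshold without mock replicate 3 at 7, 8, 9 or 10 h, with adjusted p from 0.0505 to 0.0684.

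The peroxisomal steps of photorespiration start with glycolate oxidase, which makes glyoxylate and hydrogen peroxide. GOX1 (AT3G14420) and its neighbour GOX2 (AT3G14415) fell by -1.42 ± 0.12 and -1.42 ± 0.14 (adjusted p = 2.04e-09 and 2.10e-08). GOX1 ranged from 428 to 769 CPM in mock (median 509) and from 139 to 286 in stimulus (median 204). GOX2 ranged from 200.4 to 427 in mock (median 235) and from 73.3 to 140.4 in stimulus (median 104). Neither gene's ranges overlapped between treatments.

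The aminotransferases that turn glyoxylate into glycine moved by unequal amounts. AGT1 (AT2G13360), which takes the amino group from serine, stood at 333, 337 and 546 CPM in mock replicates 1, 2 and 3 and 181, 204 and 95.7 in stimulus at 6 h. The 10 h values were 276, 294 and 582 in mock and 116, 155 and 57.2 in stimulus. As for CP12-2, replicate 3 was the highest library in mock and the lowest in stimulus. Its fall was the largest of the photorespiration genes, -1.74 ± 0.21 (adjusted p = 3.98e-07), a 3.35-fold fall. GGT1 (AT1G23310), which takes the amino group from glutamate, had the smallest fall of the 10 that passed. It stood at 464 CPM at the lowest, 573 at the median and 1145 at the highest in mock and at 329.9, 401 and 757 in stimulus, with overlapping ranges and a log2 fold change of -0.57 ± 0.18 (adjusted p = 0.0108). Its fall was of like size in the replicate sets, at -0.50 ± 0.06 in replicates 1 and 2 and -0.64 ± 0.08 in replicate 3.

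CAT2 (AT4G35090), the main leaf catalase, which removes the hydrogen peroxide made by glycolate oxidase, was the only one of the 33 genes not called. At 6 h its mock libraries held 26.9, 34.0 and 318 CPM for replicates 1, 2 and 3 and its stimulus libraries 27.6, 22.3 and 150.4. By 10 h the mock values were 28.9, 36.2 and 301 and the stimulus values 12.6, 31.3 and 132. Replicate 3 held several times the level of replicates 1 and 2 in both treatments. The average was -0.96 ± 0.65 (adjusted p = 0.216). With replicate number as a block CAT2 was called, at -0.58 (adjusted p = 0.00371). In replicate 3 it fell by -1.12 ± 0.21, and in replicates 1 and 2 it was -0.27 ± 0.16 (adjusted p = 0.124). The replicate 3 value rests on hours of 1 replicate number entered as separate libraries, so no p-value is given for it. CAT2 overlaps AT4G35080 on the opposite strand over 95 bases, a locus with 26.7% of its counts. The libraries are stranded, but the sources used here do not say whether counting used strand.

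The mitochondrial steps turn glycine into serine. Of the glycine decarboxylase subunits, GLDP1 (AT4G33010, P protein) fell by -1.01 ± 0.28, GLDT (AT1G11860, T protein) by -1.04 ± 0.10 and GLDH1 (AT2G35370, H protein) by -0.91 ± 0.08. SHM1 (AT4G37930), serine hydroxymethyltransferase, fell by -0.79 ± 0.11. GLDP1 ran against the others between replicates. At 6 h its mock libraries held 1293, 1408 and 675 CPM for replicates 1, 2 and 3 and its stimulus libraries 867, 875 and 222. By 10 h the mock values were 1357, 1478 and 868 and the stimulus values 718, 884 and 202. Replicate 3 was the lowest library in both treatments, so that mock replicate 3 stood at the level of stimulus replicates 1 and 2 although the treatments did not overlap within either set.

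The last steps return the carbon to the cycle. HPR1 (AT1G68010), the peroxisomal hydroxypyruvate reductase, fell by -1.56 ± 0.15 (adjusted p = 1.23e-08), from 211 to 399 CPM in mock (median 242) to 58.9 to 153 in stimulus (median 94.8), with no overlap. GLYK (AT1G80380), the chloroplast glycerate kinase, fell by -0.68 ± 0.12 (adjusted p = 4.70e-05), from 40.3 to 83.7 CPM in mock (median 55.7) to 28.4 to 51.9 in stimulus (median 37.2), with overlap.

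**Figure D3:**
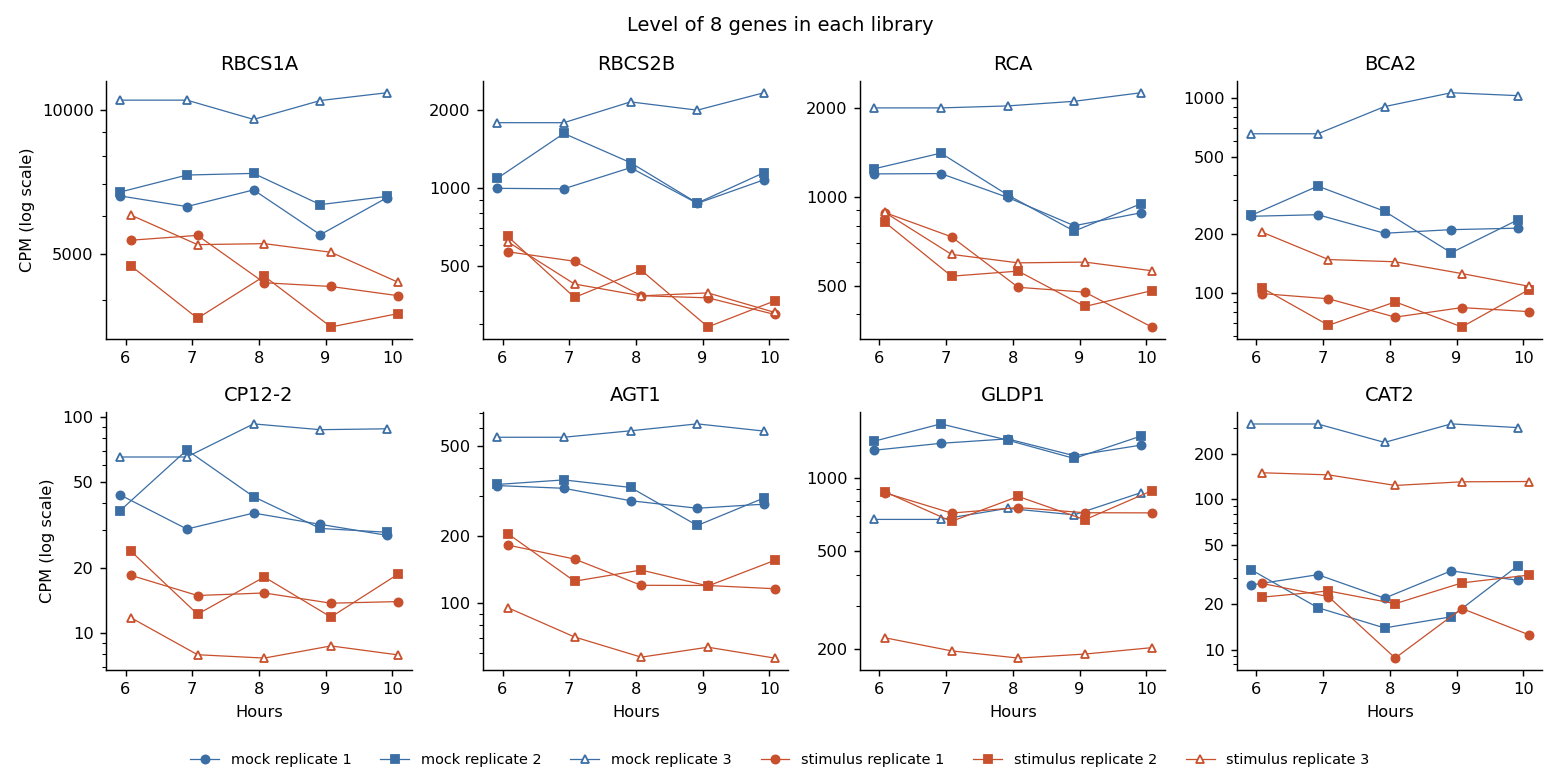
CPM on a log axis by hour for 8 genes, with 1 point per library. Mock is blue and stimulus red, replicate 3 has open triangles, lines join samples of 1 replicate number (separate leaf samples) as a guide, and the identical mock library appears at 6 and 7 h. For AGT1 replicate 3 is highest in mock and lowest in stimulus at every hour, for CP12-2 likewise except in mock at 7 h, for GLDP1 it is lowest in both treatments, and for CAT2 it is highest in both.

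The genes of a family did not fall by the same amount, which changed the make-up of several families. The share of each first-named gene in its family's counts was compared over 14 mock and 15 stimulus libraries by a two-sided permutation test within hours (100000 resamples, adjusted over the 6 families). RBCS1A made up 62.4% ± 5.21 of small subunit counts in mock and 69.7% ± 4.26 in stimulus (SD), a rise of 7.35 points (adjusted p = 0.00108), and was higher in stimulus in 15 of 15 pairs. RBCS2B, over the same libraries, went from 10.9% ± 0.959 to 6.51% ± 1.18, a change that was not tested on its own. The CP12-2 share of CP12 counts fell by 16.6 points, from 41.9% (35.1% to 49.2% in mock libraries) to 25.2% (12.2% to 37.5% in stimulus). The FBA1 share of aldolase counts fell by 8.42 points, from 28.4% (21.8% to 35.5%) to 20.0% (15.8% to 24.4%). Both had an adjusted p of 3e-05, from the smallest p that these permutations can give, and both shares were lower in stimulus in 15 of 15 pairs.

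The other families were less uniform between replicates. GAPA-1 rose from 68.3% of GAPA counts (61.7% to 75.2%) to 72.7% (66.7% to 79.8%, adjusted p = 0.0078), but the difference was 0.68 points in replicates 1 and 2 (adjusted p = 0.426). BCA1 went from 61.5% ± 10.2 of the BCA1 and BCA2 counts to 68.0% ± 6.20, a difference of 6.52 points that did not pass (adjusted p = 0.0641). It passed within replicates 1 and 2 (3.91 points, adjusted p = 0.0316) and with labels permuted within hour and replicate set (adjusted p = 0.00199). GOX1 differed by -0.73 points (adjusted p = 0.385) and, in replicates 1 and 2, by -1.28 points (adjusted p = 0.045). On counts summed over hours the exact test of 3 against 3 sums cannot go below p = 0.1, and CP12-2 and FBA1 reached it, while RBCS1A had p = 0.2 and GAPA-1 p = 0.3.

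**Figure D4:**
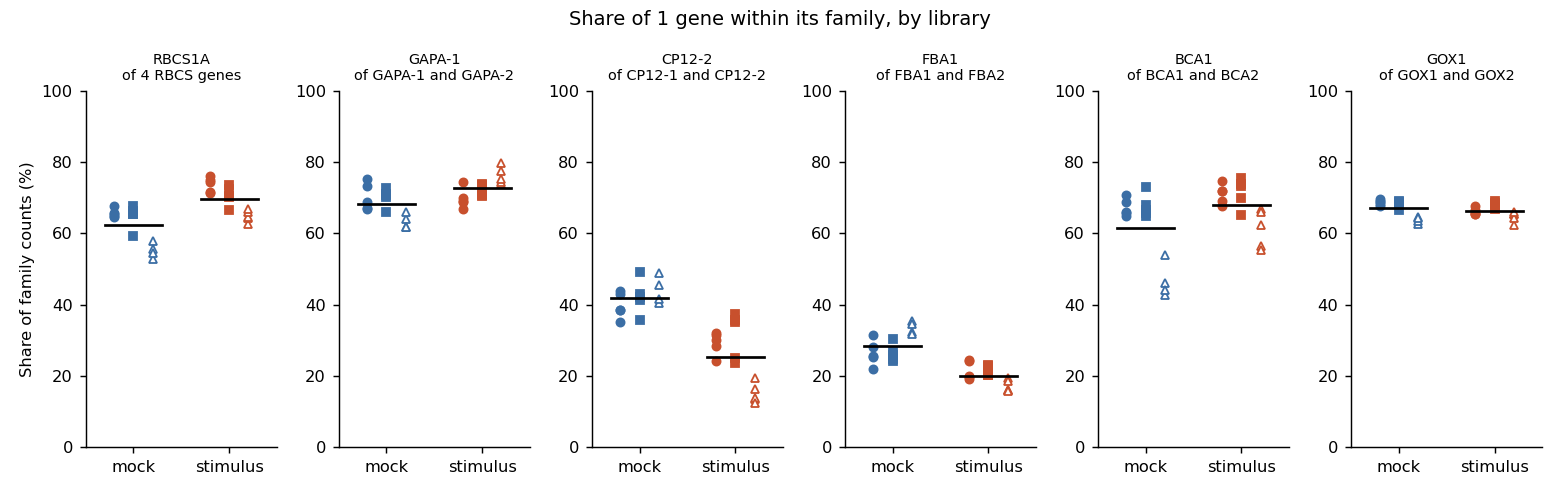
Share of 1 gene in the counts of its family, in percent, by library, for 6 families, with mock in blue, stimulus in red, replicates 1, 2 and 3 as circles, squares and open triangles, and a black bar for the mean. CP12-2 falls from a mean of 41.9% to 25.2%, while GOX1 lies between 62.2% and 69.7% in all libraries.

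The second question was how the falls ran over the hours. At 6 h, 3 Calvin cycle and 5 photorespiration genes were lower, beside 3.84% of all genes. In the same order of pathways, 7 h had 13 and 7 genes lower (8.14% of all genes), 8 h had 14 and 6 (6.39%), 9 h had 15 and 7 (8.55%), and 10 h had 16 and 8 (9.34%). The 8 genes lower at 6 h were lower at each of the 5 hours: RBCS2B, PRK, GAPB, GLDT, GLDH1, GOX1, GOX2 and HPR1. All 3 stimulus libraries lay below all 3 mock libraries for 15, 18, 19, 18 and 19 Calvin cycle genes at the successive hours and for 8 photorespiration genes at each, beside 14.9%, 17.3%, 15.6%, 17.2% and 17.6% of all genes. RPE, RPI3, GLDP1, GGT1 and CAT2 overlapped at every hour. The median log2 fold change of the Calvin cycle genes was -0.74 at 6 h, -1.24 at 7 h, -1.22 at 8 h, -1.31 at 9 h and -1.42 at 10 h, and that of the photorespiration genes -0.78, -1.07, -1.02, -1.05 and -1.11. The fall was smallest at 6 h for 31 of the 33 genes and largest at 10 h for 24, although the 6 and 7 h values share the identical mock library.

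Replicate sets bear on the hourly counts. With replicate number as a block, 27, 32, 31, 32 and 32 of the 33 genes were lower at 6, 7, 8, 9 and 10 h, beside 13.4%, 18.4%, 16.0%, 18.0% and 18.6% of all genes. In replicates 1 and 2 alone the counts were 21, 31, 31, 30 and 32, beside 13.2%, 17.7%, 16.8%, 18.3% and 19.5%. Without the identical library 1 gene was lower at 6 h and 14 at 7 h, beside 2.14% and 5.25% of all genes. DESeq2 gave 14, 23, 24, 25 and 27, beside 5.98%, 10.6%, 8.91%, 11.3% and 12.1%. Fits of the 6 libraries of each hour alone gave 0, 18, 6, 10 and 13, beside 0.394%, 4.1%, 1.54%, 3.47% and 4.5%. Single libraries also weighed on these counts. Leaving out stimulus replicate 3 at 6 h left 0 genes lower at that hour, and leaving out mock replicate 1 at 6 h left 2. Leaving out mock replicate 3 of the same hour left 10 genes at 8 h, 11 at 9 h and 12 at 10 h, and leaving out stimulus replicate 3 at 8 h left 11.

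The widening of the falls with time was not called for any single gene. The hourly slope of stimulus minus that of mock was negative for 32 of the 33 genes, beside 53.1% of all genes tested. However, 0 of the 33 passed edgeR's test or DESeq2's, and edgeR called 0 of all genes tested lower. An unadjusted p under 0.05 from edgeR was found for 2 of the 33, beside 1074 of all 21052 genes. The interaction of treatment with hour gave 0 of the 33 at an unadjusted p under 0.05, beside 336 of all genes tested. Within stimulus, BCA1 fell by 0.26 ± 0.06 per hour on the log2 scale (adjusted p = 0.0483), the 1 gene of the 33 called, beside 0.214% of all genes. Within mock 0 of the 33 genes were called by edgeR, beside 0.423% of all genes falling. An unadjusted p under 0.05 was found for 0 of the 33, beside 1848 of all 21052 genes. With replicate number as a block the genes that fell over the hours within stimulus were RBCS2B, RBCS3B, RCA, PGK1, RPE, BCA1 and GLYK, 7 of 33, beside 2.63% of all genes. With the block and without the identical library the slopes differed between treatments for 4 genes (RBCS3B, PGK1, BCA1 and SHM1), beside 1.81%. In replicates 1 and 2 alone, 19 Calvin cycle and 5 photorespiration genes fell over the hours within stimulus, beside 9.65% of all genes, 7 and 1 fell within mock, beside 11.5%, and for GAPB, FBA2 and SHM1 the slopes differed between treatments, beside 4.46% of all genes.

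**Figure D5:**
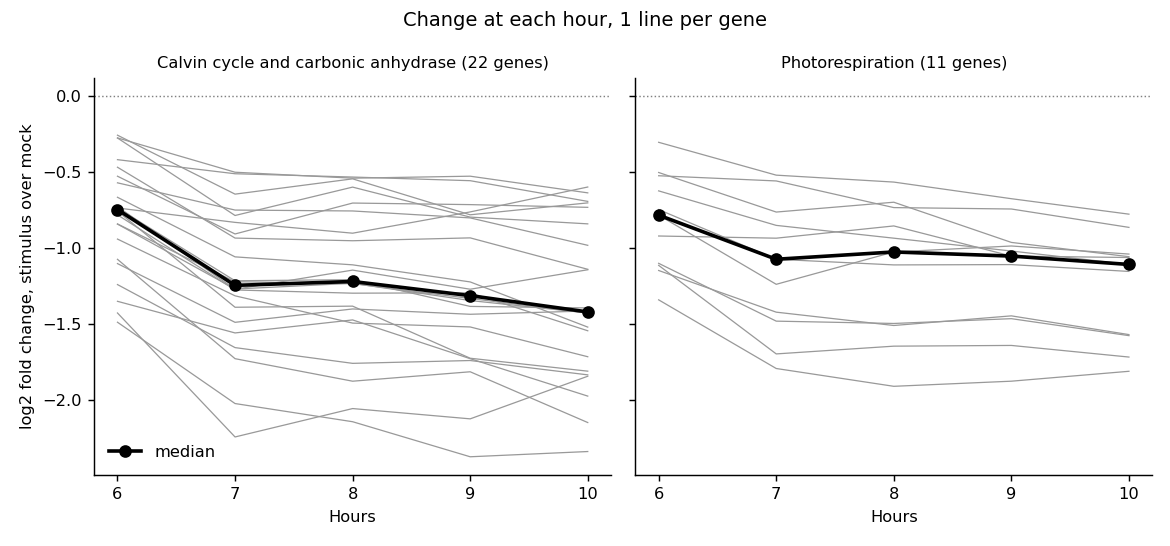
Log2 fold change of stimulus over mock at each hour from the fit of all libraries, with 1 grey line per gene and the median in black, for 22 Calvin cycle and carbonic anhydrase genes (left) and 11 photorespiration genes (right). The Calvin cycle median goes from -0.74 at 6 h to -1.42 at 10 h and the photorespiration median from -0.78 to -1.11.

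The 2 pathways were then set side by side. In each same-numbered pair of libraries the median change was taken over the genes of each pathway. The Calvin cycle median was the lower in 11 of 15 pairs, and the difference between them ranged from -0.32 at 10 h in replicate 3 to 0.07 at 6 h in replicate 3. Averaged over hours, the Calvin cycle and photorespiration medians were -0.78 and -0.76 in replicate 1, -0.94 and -0.84 in replicate 2, and -1.64 and -1.55 in replicate 3. The gap between pathways was thus far smaller than the gap between replicate 3 and the others, and no test of it was made, since the genes are not replicates.

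The size of the falls differed between replicate sets. In replicates 1 and 2 the stimulus lowered 22 Calvin cycle and 10 photorespiration genes, beside 32.3% of all genes, and in replicate 3 it lowered 22 and 11, beside 31.0%. Calls within replicate 3 rest on the scatter among its hours, which enter as separate libraries, and not among biological replicates. The median of the Calvin cycle genes was -0.89 in replicates 1 and 2 fitted alone and -1.73 in replicate 3 fitted alone, and that of the photorespiration genes -0.75 and -1.59. The interaction of treatment with replicate set was called for 19 Calvin cycle and 10 photorespiration genes, all with the larger fall in replicate 3, beside 25.6% of all genes. Without the identical library 32 of the 33 passed, beside 26.2%. With counts summed over hours 27 passed, beside 21.0%, but replicate 3 is then 1 sum in each treatment and is assumed to vary like the others. AGT1 differed by -2.02 ± 0.14 and CP12-2 by -1.96 ± 0.25, while PGK1, RBCS3B, RPE and GGT1 did not pass.

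The replicate sets also differed within mock, while no contrast of the sets within stimulus was fitted. In mock, 22 Calvin cycle and 9 photorespiration genes were higher in replicate 3 than in replicates 1 and 2, beside 32.7% of all genes, among them CAT2 by 3.53 ± 0.18, BCA2 by 1.87 ± 0.15 and RBCS1B by 1.57 ± 0.11. GLDP1 was lower by 0.92 ± 0.08 on the log2 scale, and GLDH1 did not pass at 0.08 ± 0.09. The stimulus levels of some genes were close between sets, such as RBCS2B at 435 ± 115 CPM in replicates 1 and 2 (SD, n = 10) and 431 ± 111 in replicate 3 (n = 5), against 1109.9 ± 218 (n = 10) and 2058 ± 229 (n = 4) in mock. The part of plastid RNA content or library quality in these differences was not tested.

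Other genes of the same pathways gave a mixed picture. These lists were named with earlier results of these data known, and PGK2, mtLPD1 and the genes given as not passing were singled out after their values were seen. Of 11 further Calvin cycle and carbonic anhydrase genes, 6 were lower and 1 higher on average, beside 27.0% and 29.7% of all genes. CFBP2, a second chloroplast fructose bisphosphatase, fell by -1.61 ± 0.20, BCA4, a cytosolic carbonic anhydrase, by -1.32 ± 0.15 and TPT, the triose phosphate exporter, by -1.17 ± 0.13. BCA3 was higher, with 42.2 to 91.4 CPM in stimulus replicate 3 and at most 0.855 in all mock libraries, whereas stimulus replicates 1 and 2 stood at 0.0852 to 0.656. In replicates 1 and 2 it was also called higher, by 0.92 ± 0.40 (adjusted p = 0.0457), at levels below 1 CPM in both treatments. The phosphoglycerate kinase PGK2 fell by -0.68 ± 0.05, and the paralogs TKL2, FBA3, CP12-3 and BCA5 did not pass, with averages from -0.13 to 0.12. With replicate number as a block BCA5 was called higher, at 0.15 ± 0.06 (adjusted p = 0.0234).

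Of 19 further photorespiration genes, 15 were lower and 1 higher, beside 27.0% and 29.7% of all genes. PGLP1, phosphoglycolate phosphatase, the entry step, fell by -1.23 ± 0.12, with reads that may be shared with a near-identical neighbour at AT5G36790, which fell by -1.25 ± 0.12. PLGG1, the plastid transporter of glycolate and glycerate, fell by -1.11 ± 0.09. mtLPD2, a mitochondrial lipoamide dehydrogenase, rose by 0.39 ± 0.13, while its paralog mtLPD1 fell by -0.93 ± 0.09. GOX3, CAT1 and SHM2 did not pass, at 0.50 ± 0.27, -0.08 ± 0.24 and -0.19 ± 0.09. With replicate number as a block SHM2 was called lower, making 16 of the 19, beside 32.9% of all genes. GOX3 was called higher in that fit.

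Cytosolic counterparts of the Calvin cycle enzymes serve glycolysis, sucrose synthesis and the pentose phosphate route. Of 11, 1 was lower, cyFBP, the cytosolic fructose bisphosphatase of sucrose synthesis, by -1.37 ± 0.14, and 1 was higher, RPI1, a ribose phosphate isomerase, by 0.74 ± 0.16. The median of the 11 was -0.04, and of all genes 27.0% were lower and 29.7% higher. With replicate number as a block 2 of the 11 were lower, beside 32.9% of all genes. In that fit 4 were higher, a count given with no share of all genes, so that it cannot be read as a result about these genes. Among 40 nuclear genes of the light reactions all 40 were lower on average, beside 27.0% of all genes, with a median of -0.96. On summed counts 6 of the 40 were lower, beside 3.48% of all genes.

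Markers of other cell types were read beside these falls. On the average, 27.0% of all genes were lower and 29.7% higher. Summed over 3 phloem markers, mock libraries stood at 51.5 to 85.8 CPM and stimulus libraries at 126 to 167, with SUC2 higher by 1.28 ± 0.09, SWEET11 lower by 0.68 ± 0.13 and APL at 0.17 ± 0.13. Of the 3 epidermis markers PDF2 was lower, and their sum was 187 to 239 CPM in mock and 164 to 223 in stimulus in replicates 1 and 2, and 152 to 193 and 94.6 to 129 in replicate 3. Of 4 guard cell markers KAT1 was lower, at sums of 27.5 to 39.3 in mock and 29.8 to 41.7 in stimulus. In replicate 3 all 3 epidermis markers and 3 of the 4 guard cell markers (MYB60, KAT1 and HT1) were lower, beside 31.0% of all genes. These replicate 3 calls rest on the scatter among its hours and not among biological replicates. In replicates 1 and 2 the epidermis markers PDF1 and PDF2 were lower, beside 32.3% of all genes. With replicate number as a block all 3 epidermis markers were lower, beside 32.9% of all genes. The phloem marker APL was higher in that fit, at 0.16 ± 0.07 (adjusted p = 0.0298). Of 3 xylem markers CESA7 was lower, at sums of at most 20.8 in mock and 25.2 in stimulus. Of 5 root markers RHD6 was at 0 in every library, PYK10 was the 1 tested and was lower, and the sum was at most 30.5 CPM. The part of cell type make-up in the falls was not tested.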

How the data were processed

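The deposited table holds raw counts per locus, made by the authors from ribosome-depleted paired-end reads. BWA and the TAIR10 build are named in the submitters' processing notes, while no source used here gives the counting step or its settings. Identifiers were matched to the RefSeq annotation of assembly TAIR10.1, which was used for names, gene models and promoters. Groups follow the sample labels, which number biological replicates without saying whether they are separate plantings, so each p-value reflects only the scatter among these libraries, which may be technical.

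Counts were tested with edgeR 4.0.16 (R 4.3.3): filterByExpr, TMM, 10 group means over all 30 libraries, quasi-likelihood tests and Benjamini-Hochberg adjustment over 21052 genes at 0.05. The SE of a log2 fold change is its size divided by the square root of F. Replicate sets were compared in a fit with treatment, set and hour, in which the hours of a replicate number enter as separate libraries. The average effect weights the 5 hours equally. The identical mock columns stay in the fit as deposited, and results without them are given.

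Alternatives were DESeq2 1.42.0, its size factors in edgeR, other filters on low counts, organelle, rRNA and tRNA loci removed, each hour alone, counts summed over hours, a replicate block, replicate sets apart and each library left out. Same-numbered mock and stimulus libraries deviated together (15 of 15 correlations above 0.1, from 0.158 to 0.486), so fits with the replicate number as a block are printed where they change a call, while the calls reported first come from the fit with no block. The edgeR steps were also run on simulated counts with known changes. Those counts held no replicate 3 shift and no identical library, so that run does not bear on either. Every gene of the 2 pathways on the list may be named, with the highest and lowest among them given by sample or range. Of the other lists up to 3 genes each way were named by size of change, and some that the rule would name are not reported here. The members and lists were chosen with earlier results of these data known.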

Additional observations from a re-analysis of the deposited data

Results flagged for a closer look

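The effect of the stimulus differed between replicate 3 and replicates 1 and 2, by the interaction of treatment with replicate set in edgeR's quasi-likelihood test, for 19 of 22 Calvin cycle and carbonic anhydrase genes and for 10 of 11 photorespiration genes, beside 25.6% of all genes tested called in the same direction. All 29 had the larger fall in replicate 3. The hours of a replicate number entered this fit as separate libraries, so the test rests on scatter among hours within replicate 3. Without the identical mock library 32 genes passed. The cause was not tested.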

How the results depend on the processing

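The average falls kept their direction for every one of the 33 genes under all alternatives run, and between 21 and 22 Calvin cycle and 10 photorespiration genes were called with any 1 library left out. Summing counts over hours left 7 Calvin cycle and 5 photorespiration genes, and 13 and 4 with the replicate block. The medians were -1.73 and -1.59 in replicate 3 alone, against -1.20 and -1.01. With 1 library left out they ranged from -1.23 to -1.11 and from -1.07 to -0.98, and no gene was called higher (0 to 0).

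Hourly counts moved more. At 6 h the 8 genes lower became 14 with DESeq2, 3 with no filter, 0 with that hour alone, 27 with the replicate block, 21 in replicates 1 and 2 and 1 without the identical library. At 7 h, 20 became 32 with the block, 31 with the block and without the identical library, and 31 in replicates 1 and 2. At 8 h, 20 became 6 with that hour alone and 31 in each of those same 3 fits. The share of all genes called lower moved as well, at 6 h from 0.394% with that hour alone to 13.4% with the block. No such share is given for the fit with no filter or, at single hours, for the block without the identical library. At 9 h, 22 became 10 with that hour alone, and at 10 h 24 became 13. With 1 library left out the counts ranged from 0 to 10, 14 to 22, 10 to 22, 11 to 23 and 12 to 26 at the 5 hours. Slopes that differed between treatments went from 0 to 4 with the block and without the identical library, and to 3 in replicates 1 and 2, and stayed at 0 with 1 library left out. Among the 33 genes the block changed no other call on the average than that of CAT2. The cause of these changes was not tested.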
